A study of Bos taurus with 8 samples.

Results

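The NR4A family of orphan nuclear receptors consists of NR4A1 (Nur77), NR4A2 (Nurr1) and NR4A3 (NOR1). Members were all gene probes that the platform annotation assigns to one of these symbols, which gave 3 of 15216 named genes on the array and 3 of 43794 gene probes, with 1 probe for each receptor (EMBV3_07255 for NR4A1, EMBV3_12151 for NR4A2 and EMBV3_17732 for NR4A3). The family was chosen by its ratios of FSH over control on these same arrays, where NR4A1 had one of the highest values, so those ratios are given below as a description and without a test. The cells were bovine granulosa cells, the steroid-making layer around the oocyte, from follicles of 2 to 6 mm of slaughterhouse ovaries, kept in culture for 48 h. For the final 4 h the treated cultures had 1 ng/ml of follicle-stimulating hormone (FSH) in the medium, and control cultures had none. Each of 8 two-colour arrays carried amplified RNA from one control and one FSH library. The arrays make 4 pairs with exchanged dyes, called replicates 1 to 4 by the number in their labels. The labels give 4 ovaries or follicles for each biological replicate, so a library is a pool.

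NR4A receptors are transcription factors with a ligand pocket filled by their own bulky side chains, and their activity follows largely from how much of them is made and how they are modified. They bind a response element named NBRE as monomers and a palindromic element as dimers, and NR4A1 and NR4A2 also pair with the retinoid X receptors. Their genes are immediate-early genes: cAMP, the second messenger of the FSH receptor, acts through protein kinase A and CREB to raise their transcripts within a short time, usually in a transient way. In rodent granulosa cells NR4A1 is known as a gonadotropin-responsive gene. No sequence is printed here, since the sources used held no probe, promoter or protein sequence.

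The share of gene probes brighter than the 95th percentile of negative control spots was 71.4% to 84.2% over the channels. The number of arrays limits the precision. Of 16 granulosa cell markers, 15 had a probe above that level in all 16 channels, where 69.9% of named genes did. Of other cell types, 2 of 4 theca, 4 of 7 endothelium, 2 of 8 immune and 2 of 5 oocyte markers on the array did so. The levels of a list were also summed before taking the log2, so the brightest genes weigh most in the sum. The log2 of this sum for the granulosa list was 17.1 to 17.4 in control and 17.1 to 17.3 in FSH libraries. Smooth muscle and stroma markers reached 6 of 8, with a log2 of the sum of 14.1 to 15.4 in control and 14.5 to 15.6 in FSH libraries. The labels do not tie cultures to ovaries, and the p-values below therefore reflect only how these samples vary, which may be technical.

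NR4A1 gave a strong signal in every library, and in replicates 1, 2 and 4 that signal was far higher with FSH. On the arrays with FSH in Cy5, its raw mean spot intensity was 19917, 37243, 35547 and 30554 in the FSH channel of replicates 1 to 4, against 2546, 1424, 25543 and 1598 in the control channel. On the dye-swapped arrays the FSH channel was at 25989, 38467, 35294 and 36652 and the control channel at 2687, 2971, 35051 and 3224. Every FSH channel was thus bright in both dyes, the controls of replicates 1, 2 and 4 were dim in both dyes, and the control of replicate 3 was far brighter than the other controls in both. Its Cy5 value lay among the FSH values of that dye, and its Cy3 value lay just under the lowest FSH value in Cy3. The lowest of all 16 values was still 6.11 times the 95th percentile of negative control spots on its array and channel. In bulk libraries such as these, more RNA per cell and more cells of a type cannot be told apart.

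**Figure D1:**
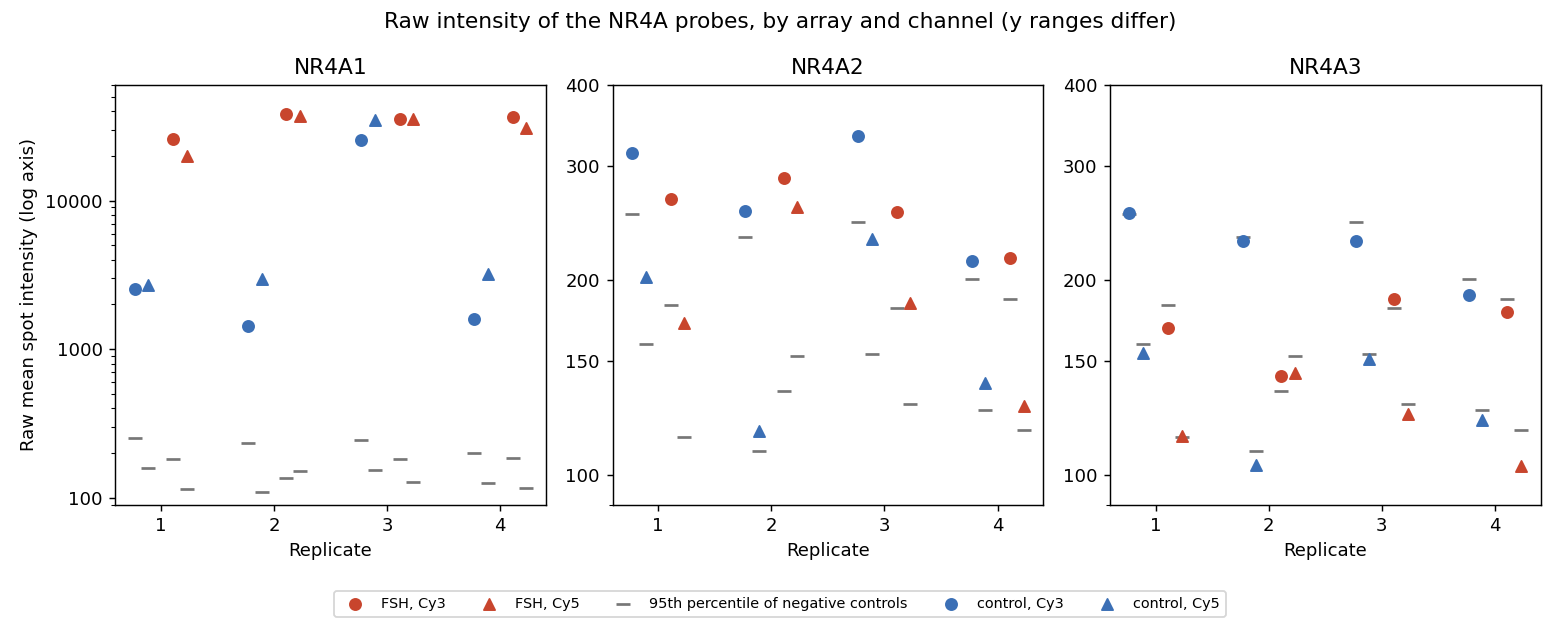
Raw mean spot intensity (log axis, ranges differ between panels) of the NR4A1, NR4A2 and NR4A3 probes in replicates 1 to 4, with control in blue, FSH in red, Cy3 as circles and Cy5 as triangles; grey bars give the 95th percentile of negative control spots of the same array and channel. NR4A1 controls of replicates 1, 2 and 4 lie between 1424 and 3224 and all other NR4A1 values at 19917 or above, while NR4A2 lies just over the grey bars and NR4A3 on them.

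After background correction and normalisation, the log2 level of NR4A1 was 11.23, 10.91, 14.88 and 11.00 in the controls of replicates 1 to 4 and 14.46, 15.28, 15.01 and 15.10 with FSH. The FSH libraries lay close together, at 14.96 ± 0.36 (SD, n = 4). The controls were at 12.01 ± 1.92, a spread that came from replicate 3: without it they were at 11.05 ± 0.17 (SD, n = 3). The 2 groups overlapped, because the control of replicate 3 stood above the FSH library of replicate 1. All FSH levels lay above all control levels in 1.67% of tested probes, and in no member of this family.

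The log2 ratio of FSH over control for NR4A1 was 3.22 in replicate 1, 4.37 in replicate 2, 0.13 in replicate 3 and 4.10 in replicate 4. These are folds of 9.33, 20.7, 1.10 and 17.1. The mean was 2.96 ± 1.94 (SD, n = 4), or 7.76-fold, and without replicate 3, left out because of this very outcome, it was 3.90 ± 0.60 (SD, n = 3), or 14.9-fold. Among 36531 tested probes NR4A1 ranked 2nd from the highest ratio in replicate 1, 9th in replicate 2 and 4th in replicate 4, but 7665th in replicate 3. By its mean it was 3rd, and 0.0465% of tested probes had a mean log2 ratio of 2 or more.

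The ceiling of the scanner was near for this probe. With FSH its mean intensity was 47.2% to 97.8% of that of the brightest gene probe in the same array and channel, and its median pixel reached 63136, where the highest pixel value in the tables is 65535. None of its 16 spots had a median pixel at that limit. The control of replicate 3 was near it as well, at 68.1% (Cy3) and 82.3% (Cy5) of the brightest gene probe. The FSH channels of that replicate were at 91.0% (Cy3) and 85.2% (Cy5). How far the ceiling compressed the FSH levels, that control level or the ratio of replicate 3 was not tested.

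The ratio of NR4A1 depended on the dye as well. On the arrays with FSH in Cy5 the log2 ratios were 3.24, 5.09, 0.34 and 4.66 in replicates 1 to 4, and on those with FSH in Cy3 they were 3.20, 3.65, -0.08 and 3.54. The orientations were alike in replicate 1 and differed most in replicate 2. The dye term, the deviation of each orientation from their mean, was 0.38 ± 0.09 (SE, n = 4 replicates, adjusted p = 0.00757 by limma over all tested probes). Dye terms of this kind were common: 59.2% of tested probes had one past the threshold of 0.05. Averaging the dye-swap pair cancels such a term in the ratios given above.

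**Figure D2:**
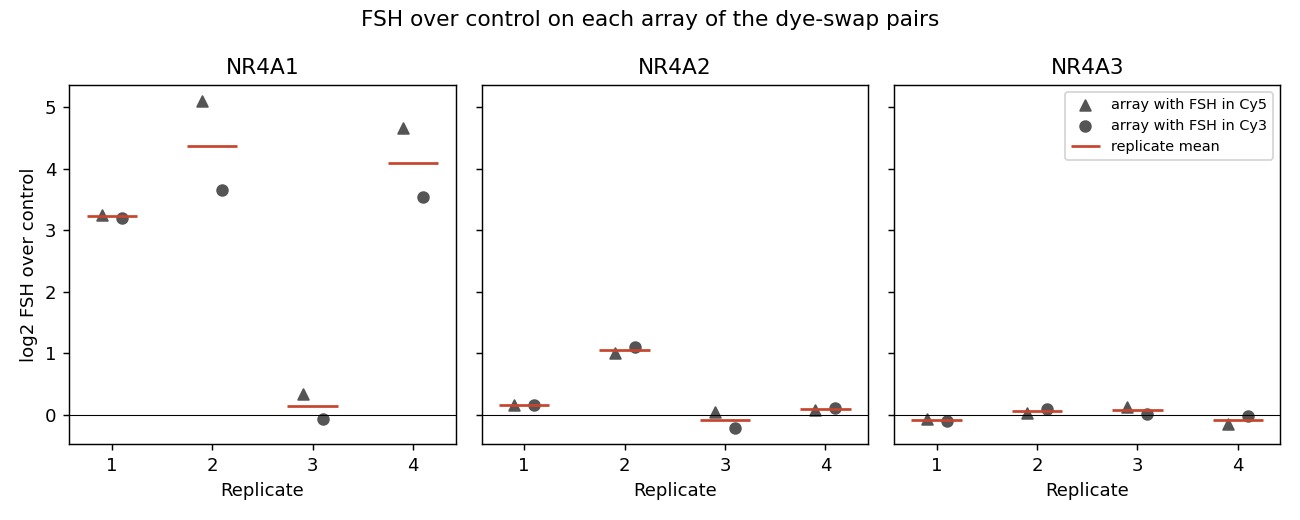
Log2 ratio of FSH over control for each NR4A probe on each array (triangles for FSH in Cy5, circles for FSH in Cy3) with the replicate mean as a red bar. NR4A1 lies between 3.22 and 4.37 in replicates 1, 2 and 4 and at 0.13 in replicate 3; NR4A2 reaches 1.05 in replicate 2 alone, and NR4A3 lies between -0.15 and 0.13 on every array.

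NR4A2, the family member known for its role in dopamine neurons, gave a dim signal that lay above the negative control level in all 16 channels, by a factor of 1.07 to 2.13. Its log2 level was 7.26, 6.90, 7.53 and 6.96 in the controls of replicates 1 to 4 and 7.42, 7.96, 7.45 and 7.06 with FSH. The FSH library of replicate 2 was the highest and the control of the same replicate the lowest, and the groups otherwise overlapped. The log2 ratio was 0.16, 1.05, -0.08 and 0.10 in replicates 1 to 4, with a mean of 0.31 ± 0.51 (SD, n = 4), which differs from 0 by less than the spread between replicates. In replicate 2 it was 1.01 and 1.10 on the 2 arrays, so both dye orientations gave a ratio near 1, and its dye term was 0.02 ± 0.03 (SE, n = 4 replicates, adjusted p = 0.669 by limma). Without replicate 2 the mean was 0.06. In that replicate NR4A2 ranked 526th of 36531 tested probes, against 7573rd in replicate 1, 25687th in replicate 3 and 10190th in replicate 4.

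NR4A3, which binds the same response element as its relatives, was near background. Its probe exceeded the negative control level in 1 of 8 control channels and 3 of 8 FSH channels, by a factor of 1.05 at most, and it did not pass the filter for testing. Its log2 level was 6.78, 6.71, 6.69 and 6.72 in the controls of replicates 1 to 4 and 6.69, 6.78, 6.77 and 6.63 with FSH. The ratios were -0.09, 0.07, 0.07 and -0.09, with a mean of -0.01 ± 0.09 (SD, n = 4). A difference in NR4A3 was not detectable with this probe, which does not show that the gene was silent or unaffected. The ratios of the members can be set side by side, but the brightness of different probes cannot, so no order of abundance among the receptors is given.

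In NR4A1 the control of replicate 3 stood apart from the other controls. Its NR4A1 level was 3.83 (log2) above the mean of the other controls, or 14.2-fold, which was the 5th highest such difference among 36531 tested probes. NR4A2 was 0.49 above the other controls in the same library, and NR4A3 was at -0.04. Of 13592 named genes by their brightest probe, 2.05% were 1 or more above the other controls there. The library labelled control in replicate 3 thus carried NR4A1 at the level of the FSH libraries, and why it did so was not tested.

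The genes whose levels followed NR4A1 most closely over the 8 libraries were picked by Pearson's r among 1051 named genes with an SD of 0.5 or more. They were CHST2, a sulfotransferase (r = 0.994), DCLRE1B, a nuclease that protects telomeres (0.992), HAS2, the hyaluronan synthase of the cumulus matrix (0.989), and GPAT3, an enzyme of triglyceride synthesis (0.988). SLC22A23, a member of the organic ion transporter family (0.987), the kinase PLK2 (0.985), ARHGAP18, a GTPase-activating protein (0.984), and GRAMD1B, a sterol transporter (0.984), came next. All of these were high in the control of replicate 3, by 1.21 for DCLRE1B to 4.23 for PLK2 over the other controls. Without that library r still lay between 0.983 and 0.993. Their mean log2 ratios ranged from 0.91 ± 0.65 (SD, n = 4) for DCLRE1B to 3.27 ± 2.48 for PLK2. Each ratio was small in replicate 3, between -0.25 and 0.21. HAS2 was at 6.71 (log2) in the control of replicate 2, the level of the NR4A3 probe there, so its ratio in that replicate starts near background. The genes were picked by these same 8 levels. Their high level in that control, their small ratio in replicate 3 and their r without that library follow largely from the choice and lend no separate support.

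Levels that ran most opposite to NR4A1 were those of INPP5B, an inositol phosphatase (r = -0.988), TOX2, an HMG-box factor (-0.987), PRKAG3, a regulatory subunit of the AMP-activated kinase (-0.983), and CHN2, a GTPase-activating protein for Rac (-0.981). Their mean log2 ratios were -0.85, -1.81, -0.79 and -0.91. In all, 125 of the 1051 genes had r over 0.9 with NR4A1 and 66 had r under -0.9. These are descriptions over 8 libraries that share arrays and 1 contrast and may share ovaries, and they say nothing on shared control.

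NR4A2 had fewer close companions: 2 of the 1051 genes had r over 0.9. ID2, an inhibitor of helix-loop-helix factors (r = 0.912), KDR, a receptor for VEGF (0.910), SLC37A3 (0.899) and the iron transporter SLC11A2 (0.882) were nearest. All of these had their highest ratio in replicate 2, between 1.54 for SLC11A2 and 2.18 for SLC37A3. They were picked by their likeness to NR4A2, which stood out in replicate 2, so this peak follows largely from the choice. In the controls of replicates 1, 2 and 4 KDR was at 6.77, 6.52 and 6.43 (log2). The NR4A3 probe, called near background above, was at 6.78, 6.71 and 6.72 there, so the KDR ratios start near background. KDR is also a marker of endothelium. Of the other tested endothelium markers, CDH5, TEK, ERG, EMCN and VWF had mean log2 ratios of -0.06, -0.10, -0.06, 0.06 and 0.07. VWF had 0.10, 0.26, -0.33 and 0.27 in replicates 1 to 4, and in the control of replicate 3 it stood 0.62 above the other controls, on the same side as KDR. PECAM1 was not tested, and the log2 of the summed endothelium levels was 9.57 to 9.94 in control and 9.70 to 9.93 in FSH libraries. The part of other cell types in the NR4A2 ratio was not tested. The levels of NR4A1 and NR4A2 themselves correlated at r = 0.686 over the 8 libraries (Spearman coefficient 0.738). These libraries share arrays and may share ovaries.

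**Figure D3:**
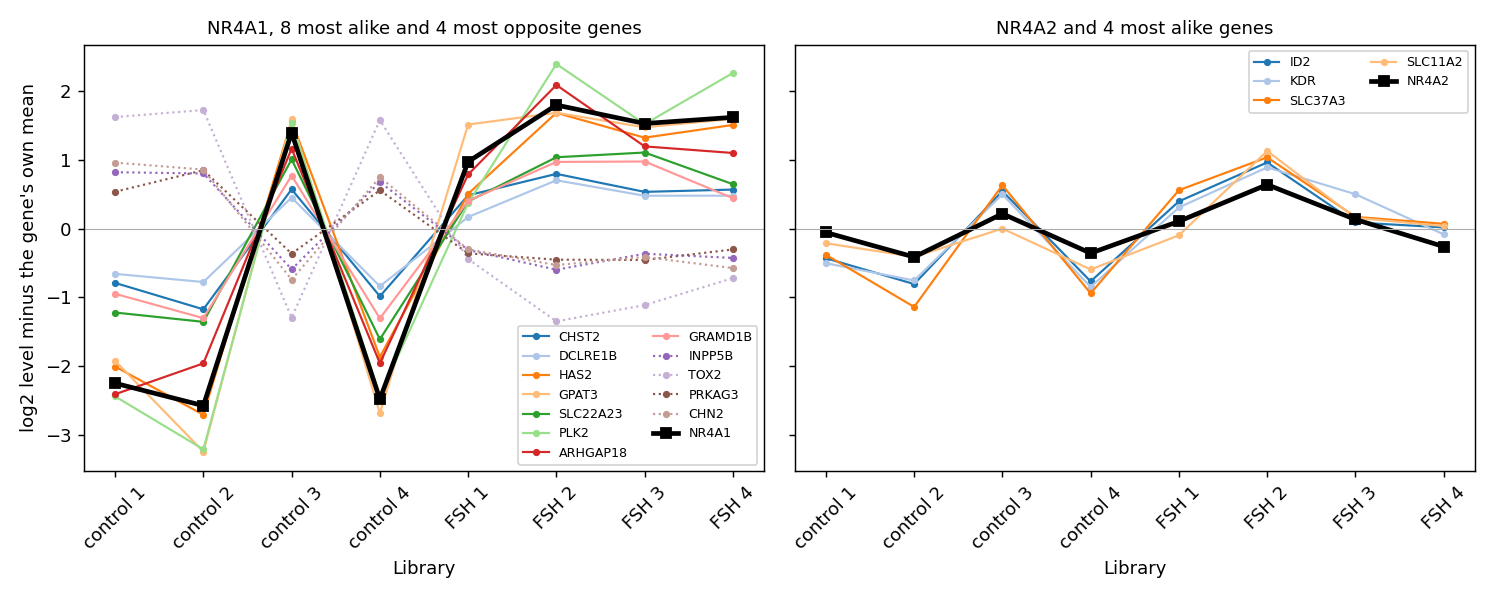
Log2 level minus the gene's own mean in the 4 control and 4 FSH libraries (lines only guide the eye) for NR4A1 in black with its 8 most alike genes (solid) and 4 most opposite genes (dotted), and for NR4A2 in black with its 4 most alike genes. NR4A1 and its most alike genes are high in the control of replicate 3, where NR4A1 is 3.83 above the other controls, and NR4A2 peaks in the FSH library of replicate 2. The other genes were picked by these same levels, so their shared shape follows from the choice.

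Whether genes around the family differed with FSH was read from a fit over all probes. Over the 4 replicate means, limma called 0 of 36531 tested probes at an adjusted p under 0.05, or 0% in either direction, and therefore 0 in every list below. At an unadjusted p under 0.05, 7.92% of named genes were higher and 8.08% lower. A second fit, called the blocked fit, used all 8 arrays, a dye term and a random effect for the replicate number. It called 751 probes (2.06%) higher and 526 (1.44%) lower, and of named genes by their brightest probe 2.74% higher and 2.48% lower. It treats arrays of one replicate number as correlated by the same amount for every probe, so its errors can come out too small, and its calls are weaker evidence than a test over 4 replicates. When replicate 3 was left out, a choice made once the outcome was known and thus no independent test, the blocked fit called 1399 probes (3.83%) higher and 1228 (3.36%) lower, or 5.26% and 5.63% of named genes. For the list genes below, the mean and SE are from limma over the 4 replicate means and the adjusted p is from the blocked fit with all replicates. In limma over replicate means the adjusted p of every list gene given with an SE was 0.202 to 0.392.

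The other immediate-early genes of the cAMP response were the list with the highest median. Whether they share a route of induction with the NR4A genes was not tested. Of 36 listed genes 32 were tested, and 3 rose and 0 fell in the blocked fit, where 2.74% and 2.48% of named genes did. At an unadjusted p under 0.05 limma had 11 on the higher side and 0 on the lower, against 7.92% and 8.08% of named genes. The list median was 0.31, against -0.00462 for all named genes. The mean ratio was above 0 in 25 of the 32 tested genes, against 48.1% of named genes. IER2, an immediate-early nuclear protein, was at 1.36 ± 0.41 (SE, adjusted p = 0.0455), IER3, a regulator of survival, at 0.62 ± 0.19 (adjusted p = 0.0498), and DUSP1, a phosphatase of MAP kinases, at 0.39 ± 0.11 (adjusted p = 0.0470). The zinc finger factor KLF4 was at 0.30 ± 0.09 (adjusted p = 0.0921). A second, dimmer probe of IER2 was at -0.11.

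By replicate the median of this list was 0.26, 0.68, -0.04 and 0.55, so replicate 3 was again near 0. In the control of replicate 3, 15 of the 32 genes stood 1 or more (log2) above the other controls, where 2.05% of named genes did. The log2 of the summed levels of the list was 15.80, 14.87, 16.78 and 15.22 in the controls of replicates 1 to 4 and 16.59 to 16.78 with FSH. Without replicate 3 the list median was 0.46. The blocked fit then called 12 members higher and 1, MYC, lower, against 5.26% and 5.63% of named genes. MYC had a mean ratio of -0.46 over the 4 replicates, with -0.43, -0.71, 0.38 and -1.10 in replicates 1 to 4. Genes of this list outside the naming rule, chosen after their values were seen, were GEM, a small GTPase (1.92 ± 0.61), the AP-1 subunit FOSL1 (1.65 ± 0.60) and the zinc finger factor EGR1 (1.61 ± 0.59), none of which passed with all replicates (adjusted p = 0.0571, 0.0772 and 0.0773 in the blocked fit).

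Among upstream regulators of NR4A transcription, 26 of 33 listed genes were tested and 2 rose in the blocked fit, where 2.74% of named genes did. SIK3 and SIK2 are kinases that hold back CREB coactivators. SIK3 was at 0.84 ± 0.21 (SE, adjusted p = 0.0293) and SIK2 at 0.44 ± 0.09 (adjusted p = 0.0420), and both were above 0 in all 4 replicates. The other SIK3 probes were at 0.99 and -0.07, and a second SIK2 probe was at 0.03. CREM, a CREB relative whose short forms repress cAMP targets, was at 0.98 ± 0.31 (adjusted p = 0.0514), with 1.06, 1.57, -0.12 and 1.43 in replicates 1 to 4, and HDAC5, a deacetylase that binds MEF2, at 0.41 ± 0.14 (adjusted p = 0.207). CREM thus followed the replicate pattern of NR4A1 and missed the threshold, and its second probe was at -0.00356. The list median was 0.08. At an unadjusted p under 0.05 limma had 4 members higher and 0 lower, against 7.92% and 8.08% of named genes. CREM is in the immediate-early list as well, so both lists count it. Some other genes also stand in more than 1 list, so the lists are not independent. Without replicate 3 the blocked fit called 4 members higher and 0 lower, against 5.26% and 5.63% of named genes.

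Of the partners and modifiers of NR4A proteins, 29 of 38 were tested, with 1 call in each direction and a list median of -0.04. These counts are near the share over all named genes in the blocked fit, 2.74% higher and 2.48% lower. MAPK8, a JNK kinase, was at 0.74 ± 0.17 (SE, adjusted p = 0.0219) and rose in the blocked fit, with a second probe at 0.14. CITED2, a binding partner of CBP and p300, was at -0.84 ± 0.23 (adjusted p = 0.0405) and fell. BCL2, which NR4A1 can bind at mitochondria, was at 0.25 ± 0.06 (adjusted p = 0.183), and the corepressor TRIM28 at -0.17 ± 0.06 (adjusted p = 0.251). Limma at an unadjusted p under 0.05 had 2 on the higher and 3 on the lower side, against 7.92% and 8.08% of named genes. Without replicate 3 the blocked fit gave 2 and 2, against 5.26% and 5.63%.

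Known or proposed targets of NR4A receptors, mostly from other tissues and species, had a list median of -0.00843, with 31 of 41 tested. In the blocked fit 1 member rose and 1 fell, near the share over all named genes, 2.74% higher and 2.48% lower. The aromatase gene CYP19A1 was at 0.78 ± 0.20 (SE, adjusted p = 0.0300) and rose in the blocked fit, though its dimmer probes were as low as 0.04. PRKAG3, which NR4A1 is reported to raise in rodent muscle, was at -0.79 ± 0.20 (adjusted p = 0.0354) and fell. HSD3B1, which converts pregnenolone to progesterone, was at -0.77 ± 0.26 (adjusted p = 0.0615), and the cyclin CCND2 at 0.25 ± 0.06 (adjusted p = 0.0871). HSD3B1 was below 0 and CCND2 above 0 in all 4 replicates, and neither passed. At an unadjusted p under 0.05, 2 members were higher and 2 lower, against 7.92% and 8.08% of named genes. Without replicate 3 the blocked fit called 2 higher and 4 lower, against 5.26% and 5.63%.

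Of 45 other listed nuclear receptors 32 were tested, with a median of -0.02 and a range of -1.38 to 1.42. The blocked fit called 3 higher and 2 lower, where 2.74% and 2.48% of named genes were called. Before adjustment, limma had 3 receptors on each side with p under 0.05, where 7.92% and 8.08% of named genes were. The counts before adjustment are thus near the share over all named genes. PPARG, the receptor of lipid storage, was at -1.38 ± 0.32 (SE, adjusted p = 0.0185) and the retinoic acid receptor RARA at -0.85 ± 0.21 (adjusted p = 0.0280), and both fell. NR1H2, an oxysterol receptor, was at 0.61 ± 0.12 (adjusted p = 0.0173), and NR5A2, an activator of steroidogenic genes, at 0.69 ± 0.08 (adjusted p = 0.0100). Both rose, and other NR5A2 probes were as low as -0.18. The progesterone receptor PGR, named after its values were seen as the only listed receptor above 1, was at 1.42 ± 0.44 (adjusted p = 0.0480) and had 0.87, 2.59, 0.14 and 2.07 in replicates 1 to 4. In the control of replicate 3, PGR stood 1.97 above the other controls and PPARG was at -2.11 relative to them, so in that library PGR lay on the side of NR4A1 and PPARG on the other side.

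**Figure D4:**
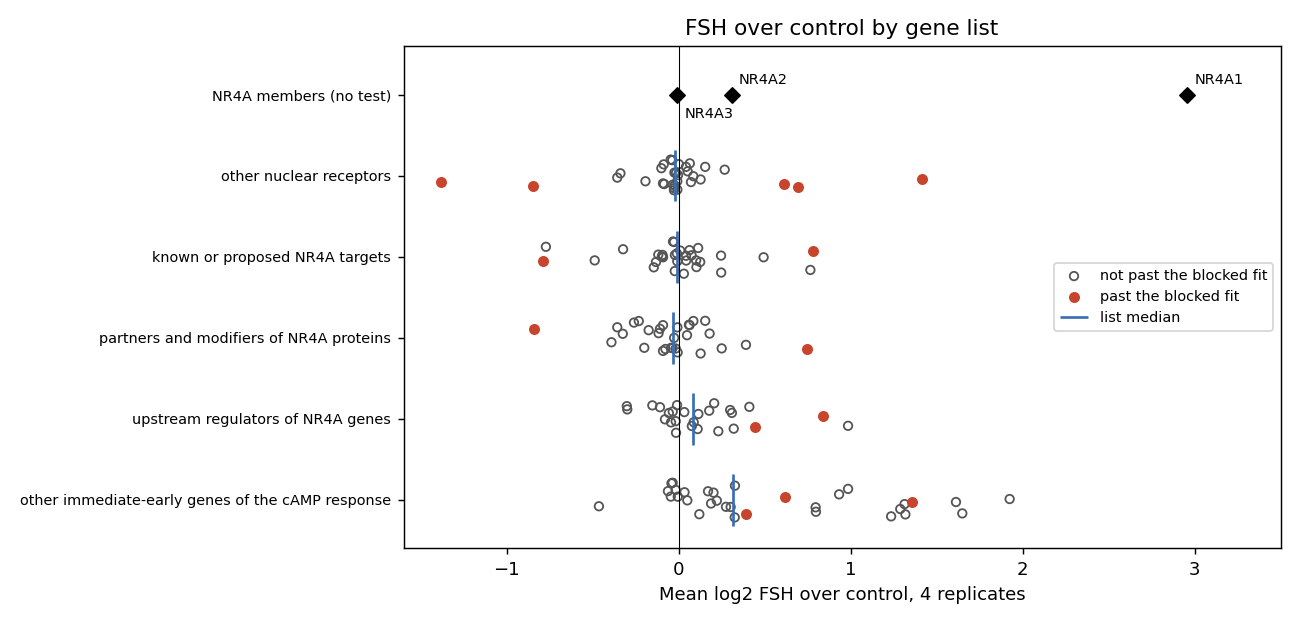
Mean log2 ratio of FSH over control over 4 replicates for each tested gene of 5 lists, by its brightest probe, with red points past an adjusted p of 0.05 in the blocked fit, open points not past it, blue bars for list medians and black diamonds for the NR4A members, which were not tested. The immediate-early list has its median at 0.31 and the other lists between -0.04 and 0.08, and NR4A1, chosen by this ratio, lies at 2.96.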

How the data were processed

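The deposited scanner tables hold raw mean and median spot intensity and local background for both dyes in separate columns, per the file headers. RNA was amplified in 2 rounds and labelled with Cy3 or Cy5, per the labels' protocols. Mean intensities were corrected with normexp (offset 50) on the median background and normalised by loess within arrays without control spots (limma 3.58.1, R 4.3.3), and levels were scaled by Aquantile. Between 15 and 53 gene spots per array that the tables mark as ignored were left out, and none was a member. Every array was expressed as FSH over control, and the 2 arrays of a replicate were averaged. Probes entered the test when 4 or more of 8 arrays had 1 or more channels above the 95th percentile of 153 negative control spots. The mean ratio was tested with lmFit and eBayes (two-sided, Benjamini-Hochberg over all tested probes). A self-test on simulated data was run first. Figures used Python 3.11.15, matplotlib 3.10.9 and pandas 2.3.3.

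Of 43794 gene probes, 21790 have a symbol, and 22004 have none. Symbols were checked against the cattle RefSeq table: 20025 were current, 1524 were replaced by the current form and 241 stayed as given. No gene was named from the series-wide ratio table, which was not used here. Same-numbered arrays of opposite dye correlated at 0.357 to 0.610 and others of opposite dye at -0.399 to 0.285, and the series design states a dye swap of 4 replicates per condition. The growth protocol in the labels speaks of 8 biological replicates, so whether the 2 arrays of a number hold the same RNA is not certain; they were counted as 1 replicate. The members and lists were chosen with earlier results of these data known. Named genes were the members, the genes closest in level to each tested member (8 and the 4 most opposite for NR4A1, 4 for NR4A2, by Pearson's r among named genes with an SD of 0.5 or more), and from each list up to 4 genes of lowest unadjusted p, with list genes past the threshold. The cell type lists serve as a check. Of 3 erythrocyte markers on the array, 1 was above the negative controls in all channels.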

Additional observations from a re-analysis of the deposited data

Results flagged for a closer look

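Of 44 sets of 4 replicates checked for a sample far from the others, 2 had one, and chance alone marks about 1 in 20 sets. The NR4A1 level of 14.88 (log2) in the control of replicate 3 stood far from the other controls, at 10.91 to 11.23, and did so on both arrays, at 14.71 in Cy3 and 15.04 in Cy5. The ratio of CHN2 in replicate 3 was 0.33, against -1.39 to -1.26 in the other replicates. CHN2 was picked for levels that ran opposite to NR4A1 in these same libraries. Its departure in replicate 3 thus follows largely from the choice and is no separate finding. NR4A1 was itself chosen by its ratio, so the rate of 1 in 20 does not gauge these 2 sets.

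The NR4A1 log2 ratio differed between the dye orientations, by 0.76 more with FSH in Cy5 than with FSH in Cy3 (adjusted p = 0.00757 by limma, in the same direction in 4 of 4 replicates). The mean ratio was 3.33 ± 2.14 (SD, n = 4) with FSH in Cy5 and 2.58 ± 1.78 with FSH in Cy3.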

How the results depend on the processing

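The mean log2 ratio of NR4A1 was 2.48 to 3.90 over 15 alternatives and 2.48 to 3.90 when each replicate was left out in turn. That of NR4A2 was 0.00289 to 0.46, lowest with raw intensities, an alternative added after seeing the data, and it was 0.21 with no normalisation within arrays. With a replicate left out it was 0.06 to 0.44, lowest without replicate 2. That of NR4A3 was -0.27 with raw intensities, an alternative added after seeing the data, and -0.04 to 0.02 with a replicate left out. The NR4A1 dye term was 0.26 to 0.63 and past the threshold in 6 of 6 alternatives.

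Counts of calls moved most, from 0 over replicate means, where leaving out any replicate also gave 0. Same-numbered arrays of opposite dye were taken as pairs from the stated dye swap, and the replicate block with a dye term (correlation 0.722) called 751 probes higher and 526 lower, with 2 upstream regulators, 2 partners, 2 targets, 3 immediate-early genes and 5 other receptors. The block with no dye term called 829 and 603, with 2, 2, 4, 5 and 5 in the same lists. The block without replicate 3, added after seeing the data, called 1399 and 1228, with 4, 4, 6, 13 and 7. Arrays with FSH in Cy5 alone gave 816 and 1167, with 2 upstream regulators, 2 partners and 3 other receptors, and arrays with FSH in Cy3 alone gave 401 and 70, with 1 partner and 2 other receptors. These single-orientation fits hold the dye effect, and the cause of the other moves was not tested. Signal over background limits NR4A2 and NR4A3, and 4 replicates limit every test.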
